A study of Mus musculus with 9 samples.

Results

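The 40 genes described here encode the DNA replication machinery: the proteins that license origins, unwind the double helix, copy both strands and supply nucleotides, together with Uhrf1 and 3 E2F transcription factors. They were chosen by name, with earlier results of these data known. All 40 were found among the 24493 genes of the deposited expression table. Each of the 40 also passed the filter of at least 1 TPM in 3 or more of the 9 libraries, so none dropped out of the 12769 genes tested. Expression was measured by RNA sequencing in untreated mouse pancreatic tumor cells of C57BL/6 background, grown in culture medium with serum. The libraries fall into 3 groups of 3. Escape e1 and escape e2 are cell lines that the series describes as resistant to immunotherapy, and the parental cells are the tumor line from which both were derived. The labels do not say how resistance was selected, whether each escape line is 1 clone, or whether separate cultures lie behind the libraries of 1 group. P-values therefore measure only the spread between these libraries.

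In each cell cycle, replication origins are first marked by the origin recognition complex. CDC6 and CDT1 then load the MCM2-7 helicase there, and geminin blocks CDT1 once S phase has begun. The helicase becomes active when CDC45 and the GINS complex join it. DNA polymerase alpha-primase lays down primers, the RFC complex loads the sliding clamp PCNA, and DNA polymerases epsilon and delta extend the leading and lagging strands. RPA covers exposed single strands, FEN1 and LIG1 finish Okazaki fragments, and ribonucleotide reductase makes the deoxynucleotides. Many of these genes are transcribed at the G1/S transition under E2F control, and tumor cells that divide rapidly express them at high levels.

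Sequence before the annotated start is shown for 3 members that were called in opposite directions in the 2 lines, and E2F motif matches are in capitals. The letters searched were TTTCCCGC, TTTCGCGC, TTTGCCGC and TTTGGCGC on both strands, in the RefSeq windows of the mouse build GRCm38.p6, which run from 250 bases before to 50 bases after an annotated start. Each line gives the 200 bases before that start, 5′ to 3′ on the strand of the gene. Mcm5 (chr8:75109309-75109508, plus strand) and Rfc4 (chr16:23127731-23127930, minus strand) were higher in e1 and lower in e2 than in parental cells. Rfc3 (chr5:151651209-151651408, minus strand) was lower in e1 and higher in e2. The starts used for Rfc3 and Rfc4 are the 5′ ends of their RefSeq genes, and that of Mcm5 lies 41 bases inside the gene. The last bases of the window were found unbroken in a GENCODE M21 transcript of the gene for Rfc3, but not for Mcm5 or Rfc4. In Mcm5 a pair of overlapping matches, on opposite strands, forms the capital run. For Rfc3 a further match begins at the start itself, just past the stretch shown. Rfc4 held none of these letters in its window.
Mcm5: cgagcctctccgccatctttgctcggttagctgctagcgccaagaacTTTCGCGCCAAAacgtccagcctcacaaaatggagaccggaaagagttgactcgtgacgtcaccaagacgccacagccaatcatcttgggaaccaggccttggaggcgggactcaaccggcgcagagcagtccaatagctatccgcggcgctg
Rfc3: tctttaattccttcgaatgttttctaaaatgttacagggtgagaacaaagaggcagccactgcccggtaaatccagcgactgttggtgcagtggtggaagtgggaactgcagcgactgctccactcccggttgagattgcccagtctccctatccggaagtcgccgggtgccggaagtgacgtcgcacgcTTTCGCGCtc
Rfc4: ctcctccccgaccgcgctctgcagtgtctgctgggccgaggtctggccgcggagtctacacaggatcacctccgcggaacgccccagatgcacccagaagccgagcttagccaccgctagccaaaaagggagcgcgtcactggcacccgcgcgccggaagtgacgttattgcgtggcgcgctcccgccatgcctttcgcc

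RefSeq windows were matched for 32 of the 40 members by symbol. Gmnn, Mcm4, Gins1, Gins2, Gins4, Rfc2, Prim2 and Pole had no window. For 25 of the 32, a window's start lay within 50 bases of the 5′ end of the RefSeq gene. For Cdc6, E2f1, Mcm7, Orc1, Pola1, Rfc1 and Rpa1 every window's start lay further inside the gene, so the sequence before their 5′ ends was not fully searched. Over the 25 members, 9 (36%) held an E2F match in such a window, beside 2.16% of 21982 genes by the same rule. The CCAAT motif, searched on both strands, was present for 18 of the 25 (72%), beside 38.6% of those genes. A match describes letters in a window and does not show that a factor binds there.

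Values are TPM, a length-scaled transcript abundance relative to the library total that keeps no sequencing depth. Fold changes are differences on the log2(TPM + 1) scale ± SE, and a gene was called at a limma adjusted p under 0.05 over all genes tested. The keratin and junction genes that mark pancreatic ductal tumor cells (8 genes) summed to 1164 to 1208 TPM in e1, 1675 to 1736 TPM in e2 and 8508 to 9683 TPM in parental cells, and all 8 were called lower in both lines. Epcam, Cldn4 and Cldn7 were below a mean of 1 TPM in both lines. The 8 mesenchymal genes summed to 4266 to 4504 TPM in e1, 4180 to 4368 TPM in e2 and 594 to 951 TPM in parental cells. Their part in the replication genes was not tested. Of 12 leukocyte genes, none reached a mean of 1 TPM in e1 or in parental cells and Lyz2 alone did in e2, while Cd3e, Cd4 and Ncr1 were among those listed at 0 in every library. Among the parental libraries, library 1 was the lowest for 30 of the 40 members (51.8% of all genes tested), with a median deviation from the group mean of -0.06 on the log2 scale. The gene Mir6236 held 9.48%, 3.92% and 6.89% of all TPM in parental libraries 1, 2 and 3. Its part in the low values of parental library 1 was not tested. Library 1 of e1 was the lowest of its group for 22 members (48.9% of all genes tested) and the highest for 12 (38.5% of all genes). Its gene values scattered most (median absolute deviation over all genes of 0.12, against 0.03 to 0.09 in the other libraries). The coefficient of variation of a member within a group had a median of 4.35% in e1, 2.63% in e2 and 4.6% in parental cells. In a bulk sample, fewer cells in S phase and less of an RNA per cell cannot be told apart.

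The series was made to compare the resistant cells with their source. Replication genes were more often higher than lower in e1 against parental cells, with the licensing genes, Rpa1 and E2f1 among the higher ones and Gins1, Mcm7 and Rfc5 among the lower ones. Of the 40 members, 21 were called higher and 6 lower, and the called share, 67.5%, stood beside 70.6% of all genes tested. Called higher were 35.7% of all genes and called lower 34.9%. The member fold changes had a median of 0.18 and ran from -0.77 (Gins1) to 1.24 (Rpa1), beside a median of 0.02 over all genes. The libraries of e1 and parental cells did not overlap for 29 of the 40 members, beside 71.4% of all genes. A fold change of 1 or more in size was seen for 1 member, Rpa1, beside 20.6% of all genes.

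In e2 against parental cells the members split nearly evenly. E2f1, Prim2, Pola1, Rpa1 and Rfc3 were among the higher ones, and Mcm4, Gins1, Rfc4, Gins2 and Rrm2 among the lower ones. Called higher were 12 and lower 15 of the 40, a called share of 67.5% beside 73.5% of all genes (40.8% higher and 32.7% lower). The median was -0.05 and the range -0.99 (Mcm4) to 1.05 (E2f1), beside a median of 0.07 over all genes. The libraries did not overlap for 33 of 40, beside 81.4% of all genes, and 1 member, E2f1, reached 1 in size, beside 24.2%. Over the alternative settings E2f1 ran from 0.83 to 1.09, so that count depends on the setting. With median-ratio scaling, and likewise with the rlog table, the split was 10 higher and 20 lower. The higher share of called members was thus 33.3% there and 44.4% with TPM as deposited. Over all genes called, that share was 48.8% with median-ratio scaling, 49% with the rlog table and 55.5% with TPM as deposited. Both lines were compared with the same parental libraries, so the 2 comparisons are not independent.

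Between the lines themselves, e2 stood below e1 for most members: 10 were higher and 22 lower in e2, a called share of 80% beside 70.3% of all genes (40.6% higher and 29.7% lower). The median was -0.29, beside 0.09 over all genes, and the values ran from -0.997 (Mcm4) to 1.07 (Prim2). The libraries did not overlap for 36 of 40, beside 76.5% of all genes, and 2 members, Prim2 and Rfc3, reached 1 in size, beside 18.2%. That count too depends on the setting: Prim2 ran from 0.84 to 1.12 and Rfc3 from 0.78 to 1.06 over the alternatives. The sum over the 40 members was 4092, 4301 and 4255 TPM in the e1 libraries, 3942, 3867 and 3877 TPM in the e2 libraries and 3662, 3988 and 3888 TPM in the parental libraries, so the e1 sums were the highest and the e2 sums overlapped the parental ones. Called in opposite directions in the lines, with the difference between lines called too, were 9 members (22.5%), beside 11.5% of all genes tested. Higher in both lines were 6 (15%, beside 22.8% of all genes) and lower in both 3 (7.5%, beside 20.3%). The members Gins3, Rfc1, Rpa3 and E2f2 were called in neither line.

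**Figure D1:**
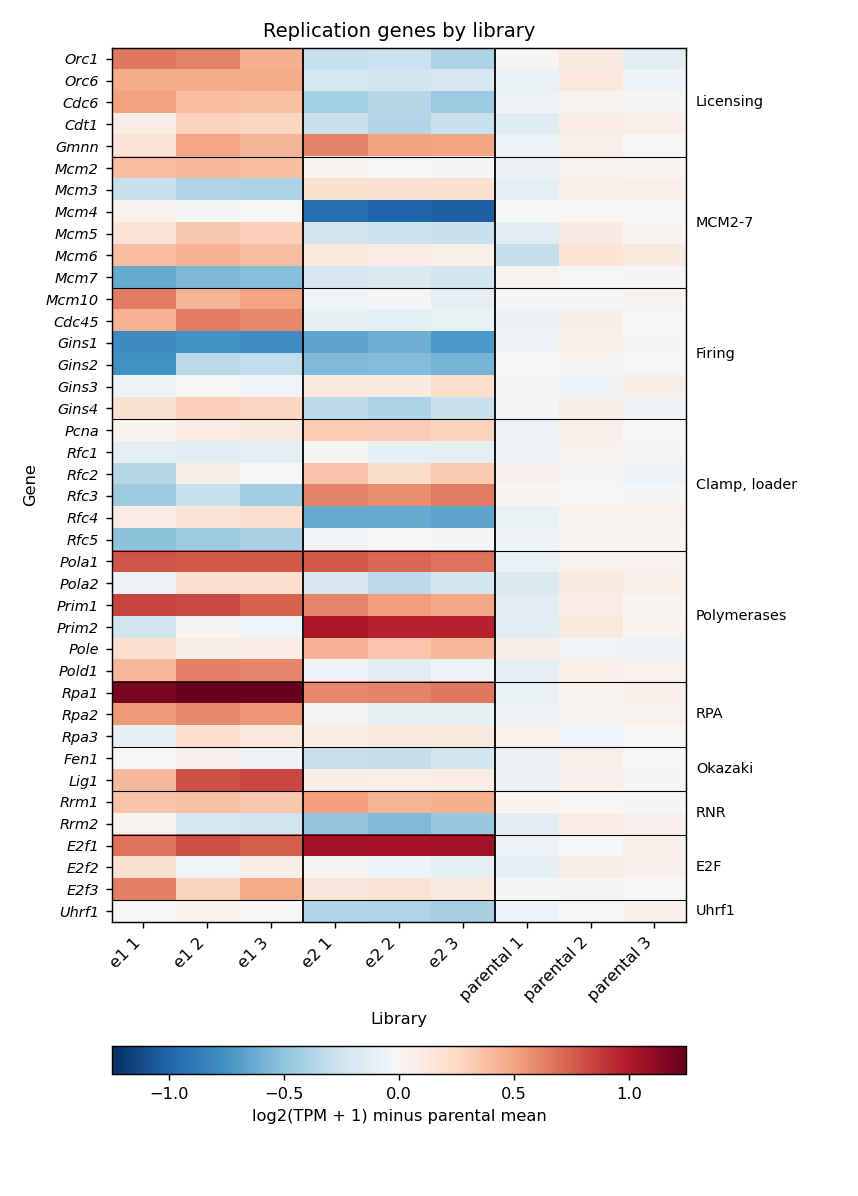
Each row is 1 of the 40 replication genes and each column 1 library, and the colour is log2(TPM + 1) minus the mean of the parental libraries, with the libraries of e1 and e2 left of the parental ones. Rpa1 in e1, and E2f1 and Prim2 in e2, stand out as higher, and Mcm4 in e2 as lower, while the libraries of a group look alike for most genes.

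Of the 5 origin licensing genes, 5 were higher in e1 (35.7% of all genes tested). In e2, 4 were lower (32.7% of all genes tested) and Gmnn was higher. Orc1, the large ATPase subunit of the origin recognition complex, had 10.7, 10.4 and 9.11 TPM in the e1 libraries, 5.05, 5.15 and 4.69 TPM in the e2 libraries and 6.51, 7.01 and 5.77 TPM in the parental libraries. All e1 values lay above the parental ones and all e2 values below them. Its fold change was 0.58 ± 0.09, adjusted p = 0.000254 in e1 and -0.31 ± 0.09, adjusted p = 0.00945 in e2, and the difference of e2 from e1 was -0.89 ± 0.09, adjusted p = 1.42e-05. Cdt1, which brings the helicase to origins, had 84.8, 97.3 and 95.8 TPM in the e1 libraries, 65.2, 61.3 and 65.2 TPM in the e2 libraries and 71.2, 84.5 and 83.3 TPM in the parental libraries. The e1 libraries lay above the parental ones by a narrow gap and the e2 libraries below them. The fold change of Cdt1 in e1 was 0.22 ± 0.08, adjusted p = 0.0352, a call that ended in the fit of the 2 groups only (0.22, adjusted p = 0.0765), leaving out parental library 1 (0.14, adjusted p = 0.104), and without e2 library 1 or 3 (adjusted p = 0.0522 and 0.0524), which enter through the shared spread. It also ended on leaving out e1 library 2 (0.18, adjusted p = 0.113) or e1 library 3 (0.19, adjusted p = 0.101). In e2 the fold change was -0.31 ± 0.08, adjusted p = 0.00593.

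Gmnn, which encodes the CDT1 inhibitor geminin, broke with the other licensing genes in e2. It had 107, 134 and 129 TPM in the e1 libraries, 147, 136 and 135 TPM in the e2 libraries and 91.5, 99.7 and 95.5 TPM in the parental libraries. Every library of both lines was above the parental range, and the e2 libraries were above the e1 libraries. The fold change was 0.36 ± 0.08, adjusted p = 0.00397 in e1 and 0.54 ± 0.08, adjusted p = 0.000285 in e2, and the difference between lines did not pass (0.18 ± 0.08, adjusted p = 0.0799), although it did without e1 library 2 (0.25, adjusted p = 0.0345) and with the 10 highest genes removed (0.23, adjusted p = 0.0243). The ratio of Cdt1 to Gmnn TPM was 0.793, 0.726 and 0.744 in the e1 libraries, 0.443, 0.452 and 0.482 in the e2 libraries and 0.779, 0.847 and 0.872 in the parental libraries, with all e2 ratios below all others. Cdc6, the loading ATPase, averaged 34.9 ± 1.91 TPM in e1, 19.2 ± 0.717 TPM in e2 and 25.9 ± 1.07 TPM in parental cells (SD, n = 3 each), a fold change of 0.42 ± 0.06 in e1 and -0.41 ± 0.06 in e2. Orc6, a small subunit of the origin complex, averaged 138 ± 0.279 TPM in e1, 85.3 ± 1.15 TPM in e2 and 99.8 ± 8.02 TPM in parental cells, with fold changes of 0.46 ± 0.06 and -0.22 ± 0.06 in the same order. The ratio of Cdc6 to Orc6 was 0.2695, 0.248 and 0.243 in the e1 libraries, 0.222, 0.238 and 0.216 in the e2 libraries and 0.264, 0.246 and 0.271 in the parental libraries, a narrow span beside that of Cdt1 to Gmnn. Here too all e2 ratios lay below all others, by a small gap.

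The MCM2-7 helicase is a ring with 1 copy of each subunit, yet its transcripts did not change together. Mcm4 was the member that fell furthest in e2, with 129, 124 and 125 TPM in the e1 libraries, 64.7, 61.9 and 61.2 TPM in the e2 libraries and 126, 125 and 125 TPM in the parental libraries. The e2 libraries lay far below both other groups, whose values were interleaved. The fold change was -0.99 ± 0.05, adjusted p = 4.21e-08 in e2, 0.01 ± 0.05, adjusted p = 0.893 in e1 and -0.997 ± 0.05, adjusted p = 8.69e-08 between e2 and e1. Mcm7 fell in both lines and further in e1, with 140.1, 147 and 150.05 TPM in the e1 libraries, 189, 192 and 184 TPM in the e2 libraries and 223, 217 and 214 TPM in the parental libraries. All e1 libraries were below all e2 libraries, which were below all parental ones. The fold change was -0.58 ± 0.05, adjusted p = 2.97e-06 in e1 and -0.21 ± 0.05, adjusted p = 0.00275 in e2. Mcm2 had 149.5, 151 and 149 TPM in the e1 libraries, 116, 115 and 112 TPM in the e2 libraries and 109, 118 and 117 TPM in the parental libraries. The e1 libraries were above the rest, and the e2 values fell inside the parental range (0.39 ± 0.05, adjusted p = 6.05e-05 in e1 and 0.00 ± 0.05, adjusted p = 0.992 in e2).

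Mcm3, Mcm5 and Mcm6 completed the ring with 3 further patterns. Mcm3 averaged 162 ± 7.12 TPM in e1, 235 ± 0.398 TPM in e2 and 206 ± 15.02 TPM in parental cells, lower in e1 (-0.35 ± 0.06, adjusted p = 0.000641) and higher in e2 (0.19 ± 0.06, adjusted p = 0.0184). The e2 call for Mcm3 ended with median-ratio scaling (0.09, adjusted p = 0.221), with the rlog table (0.08, adjusted p = 0.222), without e2 library 2 (adjusted p = 0.0522) and without e2 library 3 (adjusted p = 0.0509). Mcm5 went the other way, at 165 ± 10.3 TPM in e1, 114 ± 1.24 TPM in e2 and 137 ± 11.4 TPM in parental cells, with fold changes of 0.26 ± 0.07 in e1 and -0.26 ± 0.07 in e2. Mcm6 was higher in e1 (0.40 ± 0.11, adjusted p = 0.00754, and 0.25 without parental library 1) and not called in e2 (0.09 ± 0.11, adjusted p = 0.45), where parental library 1, at 90.98 TPM beside 126 and 122 TPM in the other parental libraries, decided the sign (-0.06 without it). Mcm6 was lower in e2 than in e1 (-0.31 ± 0.11, adjusted p = 0.0269), a call lost without e1 library 2 or 3 (adjusted p = 0.0666 and 0.0508) and without e2 library 1, 2 or 3 (adjusted p = 0.0575, 0.0629 and 0.0724). The highest of the 6 subunits exceeded the lowest by a TPM ratio of 1.32, 1.39 and 1.35 in the e1 libraries, 3.63, 3.7995 and 3.84 in the e2 libraries and 2.45, 1.83 and 1.84 in the parental libraries. The ring genes were closest to equal in e1 and furthest apart in e2, where Mcm4 held 7.39 to 7.69% of their summed TPM and Mcm3 27.9 to 28.5%.

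**Figure D2:**
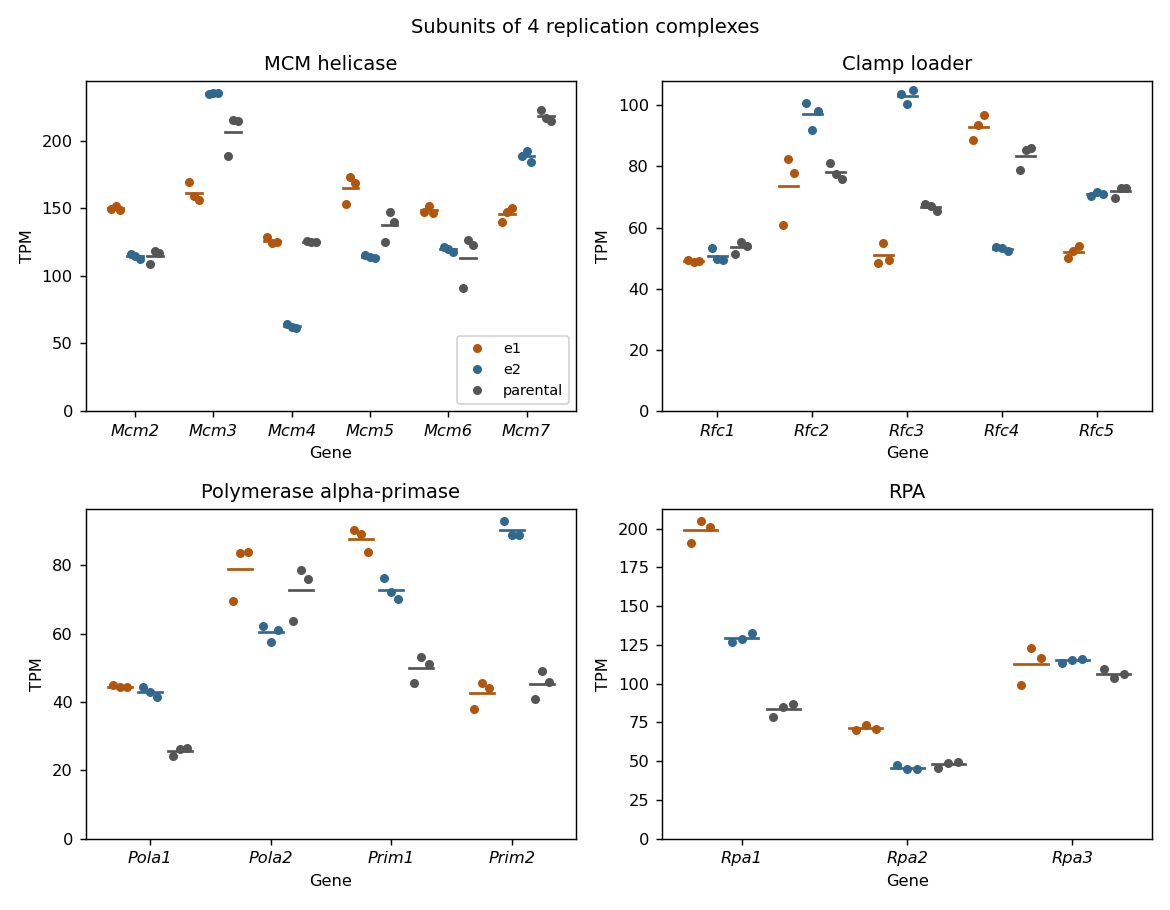
TPM (linear axis from 0) of the subunits of MCM2-7, the RFC clamp loader, DNA polymerase alpha-primase and RPA, with points for libraries and short lines for means of n = 3, e1 left, e2 middle and parental right. Subunits of 1 complex differ in order between the groups, as for Mcm4, with a mean of 62.6 TPM in e2 and 125 TPM in parental cells, and Prim2, with 90.4 TPM in e2 and 45.4 TPM in parental cells.

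Of the genes that turn the loaded helicase into a fork, Gins1 and Gins2 fell and Cdc45, Mcm10 and Gins4 rose in e1. In e2 no member of this group was called higher, beside 40.8% of all genes tested. Gins1, 1 of 4 GINS subunits, had 36.4, 37.4 and 36.7 TPM in the e1 libraries, 39.99, 41.4 and 38.2 TPM in the e2 libraries and 61.1, 66.6 and 63.1 TPM in the parental libraries. Both lines were far below the parental range, and e2 sat slightly above e1 without overlap. The fold change was -0.77 ± 0.05, adjusted p = 9.71e-07 in e1 and -0.66 ± 0.05, adjusted p = 2.69e-06 in e2, and the difference between the lines did not pass (0.11 ± 0.05, adjusted p = 0.091) except with the 10 highest genes removed (0.16, adjusted p = 0.0107). Cdc45, the helicase cofactor, had 70.96, 82.1 and 79.9 TPM in the e1 libraries, 49.1, 47.9 and 49.3 TPM in the e2 libraries and 49.7, 55.1 and 52.5 TPM in the parental libraries. It was higher in e1 (0.56 ± 0.07, adjusted p = 4.3e-05), and in e2 its libraries lay just below the parental ones without passing (-0.10 ± 0.07, adjusted p = 0.186), although that call was made with median-ratio scaling (-0.20, adjusted p = 0.0046) and the rlog table (-0.17, adjusted p = 0.00542).

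Gins2 averaged 102 ± 17.1 TPM in e1, 95.1 ± 1.51 TPM in e2 and 141 ± 1.08 TPM in parental cells and fell in both lines (-0.47 ± 0.10 in e1 and -0.56 ± 0.10 in e2). Its e1 library 1 stood at 82.6 TPM beside 111 and 113 TPM, and without that library e2 was called lower than e1 (-0.24, adjusted p = 0.000326). Gins4 was higher in e1 (0.25 ± 0.06) and lower in e2 (-0.33 ± 0.06). Gins3 averaged only 8.88 ± 0.206 TPM in e1, 10.2 ± 0.4895 TPM in e2 and 9.097 ± 0.457 TPM in parental cells and was called in neither line, although it was called higher in e2 without parental library 3 (0.19, adjusted p = 0.0462), without e1 library 1 (0.15, adjusted p = 0.0351), with the 10 highest genes removed (0.19, adjusted p = 0.0239) and without trend and robust fitting (0.15, adjusted p = 0.0411). Between the lines Gins3 was higher in e2 (0.18 ± 0.06, adjusted p = 0.0291), a call that ended with median-ratio scaling (0.09, adjusted p = 0.237), the rlog table (0.08, adjusted p = 0.284) and without e1 library 3 (adjusted p = 0.0694), e2 library 1 (adjusted p = 0.0534) or e2 library 3 (adjusted p = 0.118). Mcm10, which couples the helicase to polymerase alpha, was higher in e1 (0.52 ± 0.06) and not called in e2 (-0.06 ± 0.06, adjusted p = 0.437).

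Pcna, the sliding clamp, was the most abundant member in every group, with 591, 616 and 628 TPM in the e1 libraries, 719, 718 and 703 TPM in the e2 libraries and 554, 605 and 576 TPM in the parental libraries. The e2 libraries stood above all others, while e1 and parental values overlapped. It was higher in e2 (0.30 ± 0.05, adjusted p = 0.000218, and 0.18 in the rlog table) and not called in e1 (0.08 ± 0.05, adjusted p = 0.139), where it passed without e1 library 1 (0.11, adjusted p = 0.0453). The subunits of its loader, RFC, moved in opposite directions. Rfc3 had 48.4, 55.01 and 49.4 TPM in the e1 libraries, 104, 100.3 and 105 TPM in the e2 libraries and 67.8, 67.2 and 65.5 TPM in the parental libraries, lowest in e1 and highest in e2 with no overlap between any of the groups. Rfc4 had 88.7, 93.4 and 96.7 TPM in the e1 libraries, 53.5, 53.4 and 52.3 TPM in the e2 libraries and 78.8, 85.5 and 85.99 TPM in the parental libraries, the reverse order, again without overlap.

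The Rfc3 fold change was -0.39 ± 0.06, adjusted p = 0.000215 in e1 and 0.62 ± 0.06, adjusted p = 7.7e-06 in e2. That of Rfc4 was 0.15 ± 0.05, adjusted p = 0.0295 in e1 and -0.64 ± 0.05, adjusted p = 3.8e-06 in e2. The e1 call for Rfc4 ended with 2 groups only (adjusted p = 0.0822), without parental library 1 (0.11, adjusted p = 0.0644) and without e1 library 2 (0.15, adjusted p = 0.0753) or e1 library 3 (0.13, adjusted p = 0.108). The ratio of Rfc3 to Rfc4 TPM was 0.545, 0.589 and 0.511 in the e1 libraries, 1.94, 1.88 and 2.01 in the e2 libraries and 0.861, 0.786 and 0.762 in the parental libraries. Rfc5 had 49.98, 52.4 and 54.1 TPM in the e1 libraries, 70.2, 71.7 and 70.996 TPM in the e2 libraries and 69.7, 73.1 and 72.99 TPM in the parental libraries. It was lower in e1 (-0.46 ± 0.05, adjusted p = 2.32e-05), while its e2 values lay within the parental range (-0.02 ± 0.05, adjusted p = 0.747), with a lower call under median-ratio scaling (-0.12, adjusted p = 0.0328) and in the rlog table (-0.10, adjusted p = 0.0452). Rfc2 was called higher in e2 (0.31 ± 0.10, adjusted p = 0.021) and not called in e1 (-0.10 ± 0.10, adjusted p = 0.417), and the e2 call ended with median-ratio scaling (0.21, adjusted p = 0.0562), with the rlog table (0.18, adjusted p = 0.0522), without parental library 2 (adjusted p = 0.0546) or 3 (adjusted p = 0.0642), and without e2 library 1 or 3 (adjusted p = 0.0691 and 0.0586). Rfc1, the large subunit, averaged 49.1 ± 0.209 TPM in e1, 50.8 ± 2.09 TPM in e2 and 53.6 ± 1.95 TPM in parental cells and was called in neither line (-0.12 ± 0.05, adjusted p = 0.0552 in e1 and -0.08 ± 0.05, adjusted p = 0.201 in e2). It was called lower in e1 without parental library 1 (-0.15, adjusted p = 0.0221), without e1 library 1 (-0.13, adjusted p = 0.0456) and with the 10 highest genes removed (-0.13, adjusted p = 0.018), and in both lines with median-ratio scaling (-0.17, adjusted p = 0.0088 in e2) and the rlog table (-0.15, adjusted p = 0.00882 in e2).

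The 4 genes of DNA polymerase alpha-primase took 3 courses: Prim1 and Pola1 rose in both lines, Prim2 rose in e2, and Pola2 fell in e2. Prim1, the catalytic primase subunit, had 90.4, 89.2 and 83.9 TPM in the e1 libraries, 76.4, 72.2 and 70.1 TPM in the e2 libraries and 45.5, 53.3 and 51.1 TPM in the parental libraries. Both lines were above the parental range, with e1 above e2. Its fold change was 0.80 ± 0.07, adjusted p = 4.05e-06 in e1 and 0.54 ± 0.07, adjusted p = 6.67e-05 in e2. Prim2, the large primase subunit, had 37.97, 45.7 and 44.1 TPM in the e1 libraries, 93.1, 88.9 and 89.02 TPM in the e2 libraries and 41.03, 49.2 and 45.9 TPM in the parental libraries. Here e2 alone stood apart, at 1.99 times the parental mean, with e1 and parental values overlapping (0.98 ± 0.08, adjusted p = 4.14e-06 in e2 and -0.09 ± 0.08, adjusted p = 0.368 in e1). The ratio of Prim1 to Prim2 was 2.38, 1.95 and 1.901 in the e1 libraries, 0.8201, 0.812 and 0.787 in the e2 libraries and 1.11, 1.08 and 1.11 in the parental libraries.

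Pola1, the catalytic subunit of polymerase alpha, averaged 44.6 ± 0.444 TPM in e1, 42.99 ± 1.402 TPM in e2 and 25.7 ± 1.34 TPM in parental cells and rose in both lines (0.77 ± 0.05 in e1 and 0.72 ± 0.05 in e2). The difference between the lines for Pola1 was -0.05 ± 0.05, adjusted p = 0.429, and it passed with median-ratio scaling (-0.15, adjusted p = 0.0284) and the rlog table (-0.13, adjusted p = 0.0259). The ratio of Prim1 to Pola1, the pair of catalytic subunits, was 2.01, 2.01 and 1.89 in the e1 libraries, 1.72, 1.68 and 1.68 in the e2 libraries and 1.89, 2.02 and 1.93 in the parental libraries. The accessory subunit gene Pola2 averaged 78.99 ± 8.18 TPM in e1, 60.4 ± 2.45 TPM in e2 and 72.8 ± 7.86 TPM in parental cells and was called lower in e2 (-0.26 ± 0.10, adjusted p = 0.0334) and not called in e1 (0.12 ± 0.10, adjusted p = 0.298), where it was called higher without e1 library 1 (0.21, adjusted p = 0.0428). The e2 call was lost on leaving out parental library 2 (adjusted p = 0.118) or 3 (0.104), and without any 1 e2 library (adjusted p = 0.0547, 0.105 and 0.0676 without libraries 1, 2 and 3). The catalytic subunits of the replicative polymerases split by line. Pole, of the leading strand, was higher in e2 (0.39 ± 0.06, adjusted p = 0.000213) with 0.12 ± 0.06, adjusted p = 0.0891 in e1, where it was called without parental library 1 (0.16, adjusted p = 0.0344). Its higher level in e2 than in e1 (0.27 ± 0.06, adjusted p = 0.00252) did not pass with median-ratio scaling (0.17, adjusted p = 0.0536). Pold1, of the lagging strand, was higher in e1 (0.55 ± 0.07, adjusted p = 0.000113) with -0.08 ± 0.07, adjusted p = 0.363 in e2. Pold1 in e2 was called lower with median-ratio scaling (-0.17, adjusted p = 0.0187) and with the rlog table (-0.15, adjusted p = 0.018).

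**Figure D3:**
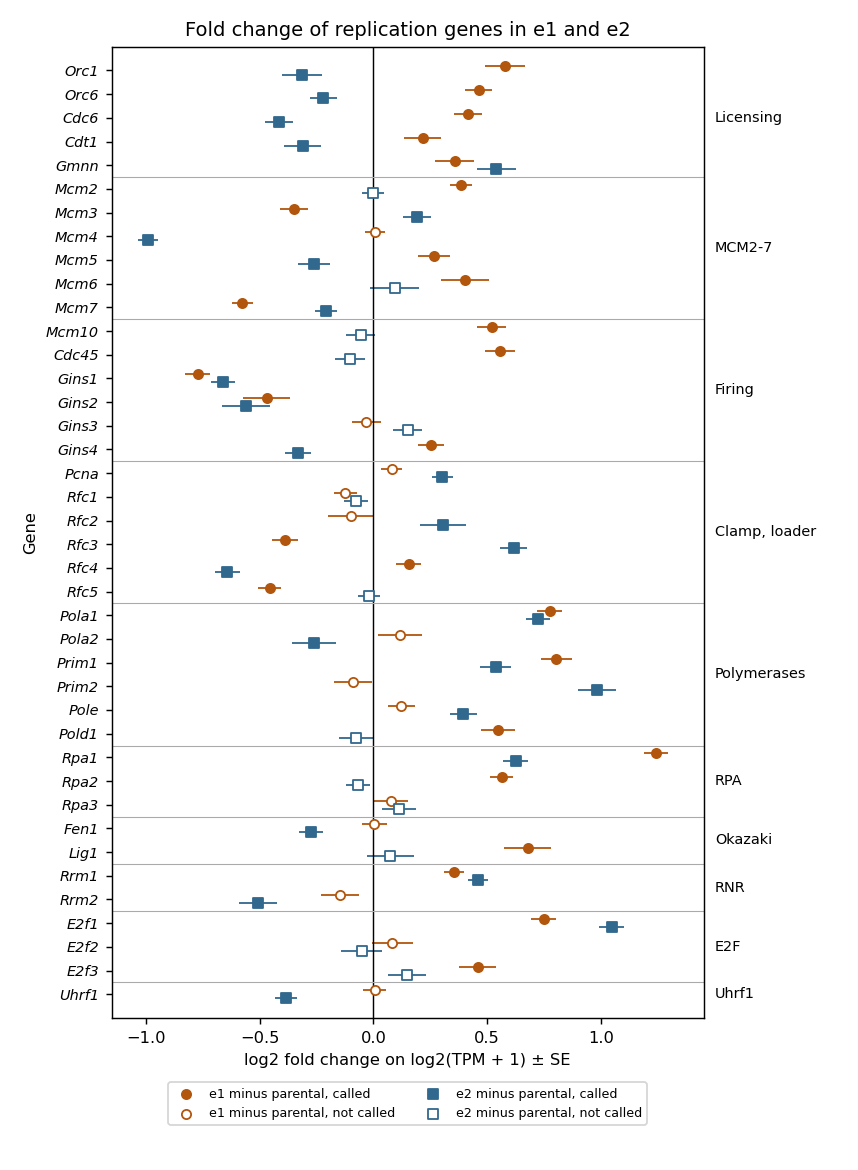
Log2 fold change on the log2(TPM + 1) scale (horizontal axis, ± SE) of e1 minus parental (circles) and e2 minus parental (squares) for the 40 genes by role, filled where called at an adjusted p under 0.05 and open where not. The licensing genes other than Gmnn lie right of 0 in e1 and left of it in e2, and Gins1, Gins2 and Mcm7 lie left of 0 in both lines.

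RPA, the single-strand binding complex, has 3 subunits, and its largest one had the largest fold change of the 40 members in e1. Rpa1 had 191, 205 and 201 TPM in the e1 libraries, 127, 129 and 132 TPM in the e2 libraries and 78.7, 84.99 and 87.2 TPM in the parental libraries. The groups did not overlap, and e1 was highest. Its mean in e1 was 2.38 times that in parental cells, and in e2 1.55 times (1.24 ± 0.05, adjusted p = 3.87e-08 in e1 and 0.63 ± 0.05, adjusted p = 4.48e-06 in e2). Rpa2 had 69.9, 73.1 and 70.9 TPM in the e1 libraries, 47.5, 44.8 and 44.998 TPM in the e2 libraries and 45.9, 48.7 and 49.4 TPM in the parental libraries. It was higher in e1 only by the test (0.56 ± 0.05, adjusted p = 7.28e-06 in e1 and -0.07 ± 0.05, adjusted p = 0.269 in e2), and the e2 minus e1 difference was -0.63 ± 0.05, adjusted p = 4.16e-06. In e2, Rpa2 was called lower than in parental cells with median-ratio scaling (-0.16, adjusted p = 0.00895) and with the rlog table (-0.14, adjusted p = 0.0125). Rpa3, the smallest subunit, averaged 113 ± 12.4 TPM in e1, 115 ± 1.32 TPM in e2 and 106 ± 2.89 TPM in parental cells and was called in neither line, although without e1 library 1 it was called higher in e1 (0.17, adjusted p = 0.00553) and in e2 (0.11, adjusted p = 0.0239), and in e2 with 2 groups only (0.11, adjusted p = 0.0336).

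Lig1, the ligase that seals Okazaki fragments, rose in e1, while Fen1, the flap nuclease that acts before it, fell in e2. Lig1 had 114, 150.3 and 155 TPM in the e1 libraries, 90.6, 90.1 and 91.8 TPM in the e2 libraries and 81.95, 89.5 and 87.4 TPM in the parental libraries. The e1 libraries were highest, with library 1 well below the other e1 libraries (0.68 ± 0.10, adjusted p = 0.000251 in e1, 0.07 ± 0.10, adjusted p = 0.532 in e2). Fen1 had 89.4, 92.6 and 86.2 TPM in the e1 libraries, 72.7, 72.1 and 75.6 TPM in the e2 libraries and 84.9, 92.9 and 89.7 TPM in the parental libraries. Its e2 values were all below the parental ones, and its e1 values overlapped them (-0.27 ± 0.05, adjusted p = 0.00116 in e2, 0.00 ± 0.05, adjusted p = 0.941 in e1).

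The 2 subunits of ribonucleotide reductase went apart. Rrm1, the large subunit, had 147, 147 and 145 TPM in the e1 libraries, 163, 154 and 156 TPM in the e2 libraries and 116, 114 and 113 TPM in the parental libraries. It was higher in both lines (0.35 ± 0.04, adjusted p = 6.33e-05 in e1 and 0.46 ± 0.04, adjusted p = 9.26e-06 in e2). The difference of e2 from e1 (0.10 ± 0.04, adjusted p = 0.0581) passed without parental library 1 (adjusted p = 0.0349), without e1 library 1 (adjusted p = 0.0399) and with the 10 highest genes removed (adjusted p = 0.00994). Rrm2, the small subunit whose level limits the enzyme in S phase, had 379.9, 320.02 and 314 TPM in the e1 libraries, 264, 255 and 268 TPM in the e2 libraries and 338, 397 and 386 TPM in the parental libraries. The e2 libraries were below all others, and e1 library 1 alone of the e1 libraries was inside the upper parental range. Rrm2 was lower in e2 (-0.51 ± 0.08, adjusted p = 0.000417) and not called in e1 (-0.15 ± 0.08, adjusted p = 0.147), where it was called lower without e1 library 1 (-0.23, adjusted p = 0.00828) and without parental library 1 (-0.22, adjusted p = 0.0453). The ratio of Rrm2 to Rrm1 was 2.59, 2.17 and 2.17 in the e1 libraries, 1.62, 1.66 and 1.72 in the e2 libraries and 2.92, 3.49 and 3.41 in the parental libraries, and every library of both lines was below the parental range.

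E2f1, an activator of G1/S genes, rose in both lines, most in e2. It had 48.5, 52.8 and 51.03 TPM in the e1 libraries, 62.98, 62.4 and 62.7 TPM in the e2 libraries and 28.4, 29.9 and 31.2 TPM in the parental libraries. The groups did not overlap. The fold change was 0.75 ± 0.05, adjusted p = 1.32e-06 in e1, 1.05 ± 0.05, adjusted p = 1.07e-07 in e2 and 0.30 ± 0.05, adjusted p = 0.000795 for e2 minus e1, where the rlog table gave 0.18. E2f3, another activator, had 18.9, 14.7 and 16.8 TPM in the e1 libraries, 13.2, 13.6 and 13.03 TPM in the e2 libraries and 11.8, 12.04 and 11.9 TPM in the parental libraries. It was higher in e1 (0.46 ± 0.08, adjusted p = 0.000746), and in e2 it lay above the parental range without passing (0.15 ± 0.08, adjusted p = 0.134), except with 2 groups only (adjusted p = 0.0228) and without e1 library 1 (adjusted p = 0.0351). E2f2 was the least abundant member, at 4.16 ± 0.398 TPM in e1, 3.69 ± 0.228 TPM in e2 and 3.87 ± 0.3596 TPM in parental cells, and was called in no comparison. Uhrf1, which carries DNA methylation through replication, had 90.97, 93.04 and 90.9 TPM in the e1 libraries, 70.6, 70.2 and 68.4 TPM in the e2 libraries and 87.2, 91.8 and 95.05 TPM in the parental libraries. It was lower in e2 (-0.38 ± 0.05, adjusted p = 6.62e-05), and its e1 values sat within the parental range (0.00 ± 0.05, adjusted p = 0.935).

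A further 47 replication genes, all tested, were listed by function. They gave 25 higher and 10 lower in e1 (median 0.23) and 14 higher and 16 lower in e2 (median -0.08). For e2 against e1 they gave 9 higher and 27 lower (median -0.30). Called were 74.5%, 63.8% and 76.6% of them in that order, beside 70.6%, 73.5% and 70.3% of all genes tested. Tyms, thymidylate synthase, was lower in e1 (-0.31 ± 0.05) and higher in e2 (0.35 ± 0.05). Dbf4, the activating partner of the CDC7 kinase that fires origins, averaged 56.1 ± 3.41 TPM in e1, 117 ± 2.21 TPM in e2 and 109 ± 3.57 TPM in parental cells, lower in e1 (-0.95 ± 0.06, adjusted p = 3.19e-07) and not called in e2 (0.10 ± 0.06, adjusted p = 0.146). Cdc7 itself was higher in e2 (0.43 ± 0.06, adjusted p = 8.63e-05) and not called in e1 (-0.08 ± 0.06, adjusted p = 0.219). Other subunits of the origin recognition complex diverged in e2 as well. Orc4 fell there (-1.20 ± 0.08, adjusted p = 6.73e-07) and Orc3 rose (0.90 ± 0.09, adjusted p = 8e-06). Pold4, a small subunit of polymerase delta, fell in e1 (-1.27 ± 0.16, adjusted p = 7.41e-05) and had 0.52 ± 0.16, adjusted p = 0.0161 in e2.

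Of 7 other E2F and DP genes, 3 were higher and 1 lower in e1, and 2 higher and 3 lower in e2. For e2 against e1, 1 was higher and 5 were lower. The called shares were 57.1%, 71.4% and 85.7% in that order, beside 70.6%, 73.5% and 70.3% of all genes tested. Tfdp1, the partner with which E2F proteins bind DNA, averaged 311 ± 6.83 TPM in e1, 152 ± 3.597 TPM in e2 and 190.1 ± 11.4 TPM in parental cells, higher in e1 (0.71 ± 0.05) and lower in e2 (-0.32 ± 0.05). E2f4, a family member that acts mainly in repression, was lower in e2 (-1.36 ± 0.11, adjusted p = 3.38e-06) with -0.28 ± 0.11, adjusted p = 0.0549 in e1. E2f8, a repressor of E2F target genes, was lower in e1 (-0.25 ± 0.09) and higher in e2 (0.49 ± 0.09).

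Mitosis genes, of which 32 were listed and tested, were set beside the replication genes because the same cycling cells express both. In e1, 20 were higher and 6 lower (median 0.32), and in e2, 17 were higher and 4 lower (median 0.20). Against e1, 8 were higher and 15 lower in e2 (median -0.14). Those called made up 81.25%, 65.6% and 71.9% of the list in that order, beside 70.6%, 73.5% and 70.3% of all genes tested. Ccnb1, the mitotic cyclin B1, rose in both lines (0.84 ± 0.05 in e1 and 0.66 ± 0.05 in e2), as did Top2a, topoisomerase II (0.71 ± 0.06 and 0.42 ± 0.06). Mki67, a marker of cycling cells, averaged 44.7 ± 1.48 TPM in e1, 59.9 ± 1.72 TPM in e2 and 42.6 ± 3.18 TPM in parental cells and was called higher in e2 (0.48 ± 0.06, adjusted p = 8e-05) but not in e1 (0.07 ± 0.06, adjusted p = 0.363). Mybl2, an activator of cell cycle genes, fell in e2 (-1.19 ± 0.12, adjusted p = 1.08e-05). The part of a changed share of cycling cells in the replication genes was not tested.

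The chromosomes that carry the members had their own level shifts. Over the tested genes of each chromosome other than the members, the median fold change in e1 was -0.56 on chromosome 5 (800 genes), and in e2 it was -0.65 on chromosome 16 (378 genes) and 0.76 on chromosome 13 (454 genes). Several members were called in the direction of these medians, some close to them and some not. On chromosome 5 in e1, Mcm7 (-0.58 ± 0.05), Rfc5 (-0.46 ± 0.05) and Rfc3 (-0.39 ± 0.06) were called lower, while Rfc1, Rfc2 and Pole on the same chromosome were not called. On chromosome 16 in e2, Mcm4 (-0.99 ± 0.05) and Rfc4 (-0.64 ± 0.05) were lower and Cdc45 was not called. On chromosome 13, Gmnn had 0.54 ± 0.08 in e2 and 0.36 ± 0.08 in e1, where the chromosome median was 0.48. E2f3, the other member there, had 0.46 ± 0.08 in e1, close to that median, and 0.15 ± 0.08 in e2, far below the median of 0.76. Between the lines, chromosome 5 stood at 0.63 and chromosome 16 at -0.53. Other members did not follow their chromosome: Gins1 and E2f1 lie on chromosome 2, whose medians were 0.00 in e1 and 0.11 in e2, and Rpa1 on chromosome 11, with 0.18 and 0.09. Members on chromosomes with larger shifts departed too. In e1, Rrm2 had -0.15 beside a median of 0.48 on chromosome 12, and Mcm6 had 0.40 beside -0.28 on chromosome 1. Pola2 and Fen1 had 0.12 and 0.00 in e1 beside -0.38 on chromosome 19, and Uhrf1 had 0.00 beside -0.35 on chromosome 17. Over the 40 members, which share libraries and lie on 15 chromosomes, Pearson's r between a member's fold change and its chromosome's median was 0.49 in e1, 0.44 in e2 and 0.66 for e2 against e1, given as a description. The standard deviation over members was 0.38 after subtracting the chromosome median and 0.50 before it for e2 against e1, 0.38 and 0.42 in e1, and 0.41 and 0.45 in e2. This look at chromosomes was chosen after the values were seen, and what lies behind the shifts was not tested.

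**Figure D4:**
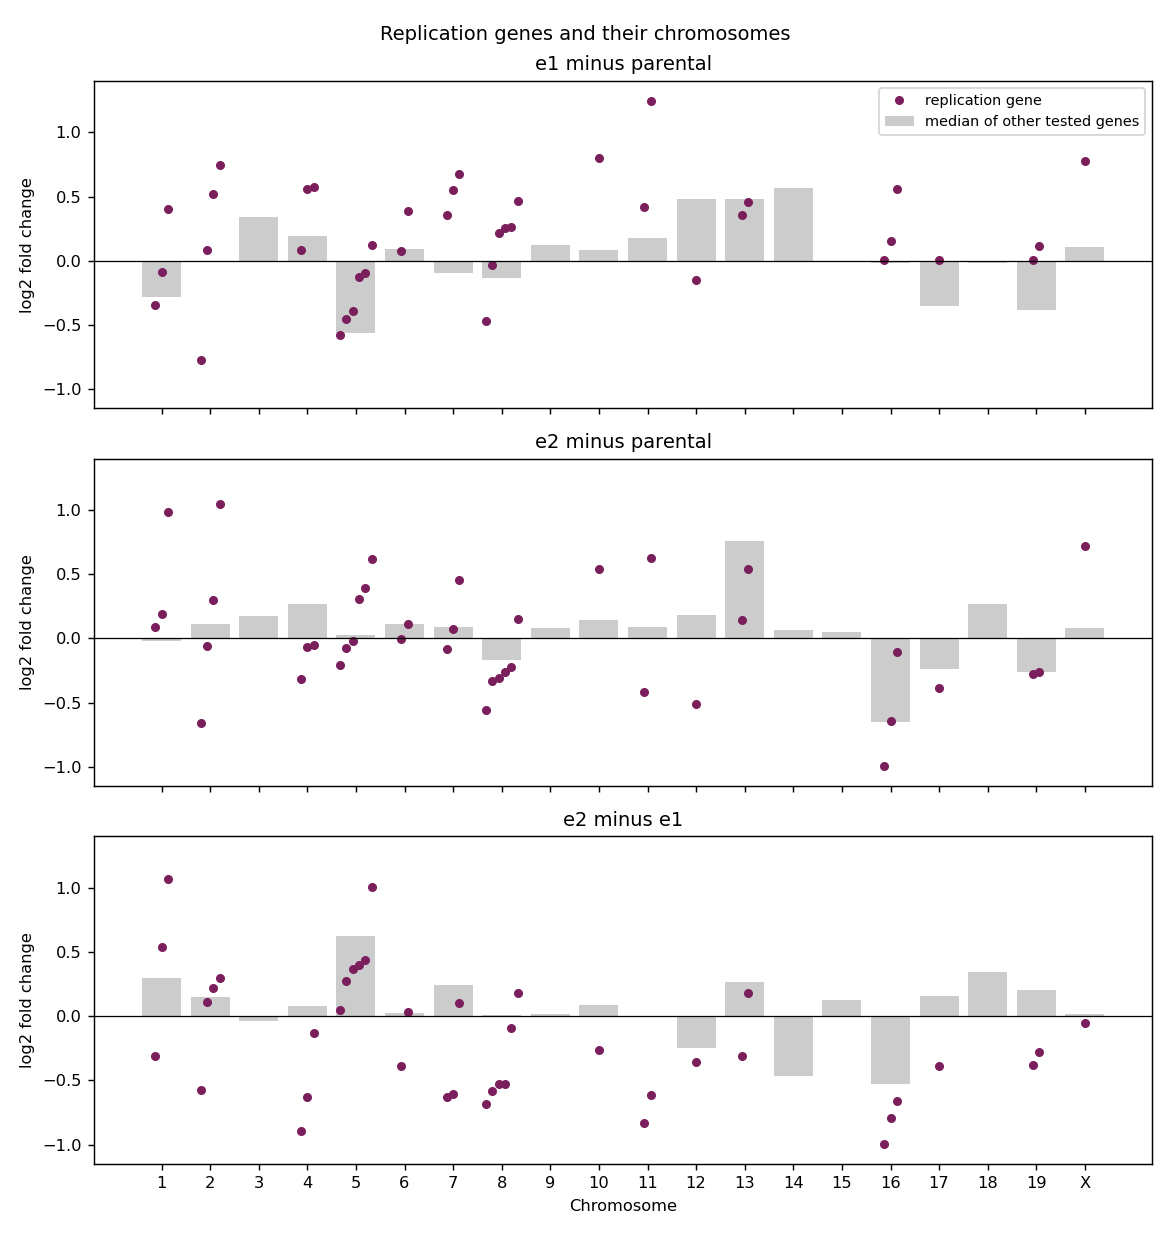
Grey bars give the median log2 fold change (vertical axis) of tested genes other than the members on each chromosome, and points the replication genes there, for e1 minus parental (top), e2 minus parental (middle) and e2 minus e1 (bottom). Members on chromosome 5 lie mostly below 0 in e1, and 3 of 3 on chromosome 16 lie below 0 in e2, where the chromosome medians are -0.56 and -0.65.

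Some members share exonic bases with a gene on the other strand, and the strand setting of the counting is not given in the sources used here. In GENCODE M21, 11 of the 40 members have such an overlap. The widest of those with a protein-coding partner was 2758 bases between Gins2 and Gse1, whose TPM had a median of 9.28 over the libraries. Next came 952 bases between Rfc2 and Lat2 (median 3.3 TPM) and 499 bases between Rfc5 and Wsb2 (median 118 TPM). More abundant partners shared fewer bases. They were Tmem258 with Fen1 (130 bases, median 395 TPM) and Cops6 with Mcm7 (64 bases, 241 TPM). Vps35 with Orc6 (171 bases, 222 TPM) and Eif4a2 with Rfc4 (194 bases, 157 TPM) were others. Reads from such partners cannot be told apart if the counting ignored strand, so the levels of Cdc45, Fen1, Gins2, Lig1, Mcm7, Orc1, Orc6, Pole, Rfc2, Rfc4 and Rfc5 carry that uncertainty. Mcm4, Prim2, Rpa1, E2f1, Gins1 and Rfc3 have no such overlap.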

How the data were processed

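RNA was sequenced in 9 libraries, 3 each of escape e1, escape e2 and parental cells, grouped by their titles. Gene TPM and log2 (rlog) values were deposited as 2 tables. The authors named Salmon, DESeq2 and the mm10 build, per the submitters' processing notes. Tool versions, annotation and strand setting: not given in the sources used here. The TPM table keeps no depth, so no counting interval is given.

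The values analysed were log2(TPM + 1) of genes reaching 1 TPM in 3 or more libraries, 12769 of 24493 genes. limma 3.58.1 (R 4.3.3) fitted 3 group means over all 9 libraries, with trend and robust empirical Bayes. Two-sided p-values were adjusted over all genes tested (Benjamini-Hochberg), and a call needed an adjusted p under 0.05. The fit was tested on simulated data. Chromosomes and neighbours come from RefSeq genes of GRCm38.p6, matched by symbol (mm10 is that build), exon overlaps from GENCODE M21.

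Alternative settings changed the filter (none, or 5 TPM), the pseudocount (0.1), the scaling (median-ratio, or with the 10 highest genes left out), the table (rlog), the libraries fitted (2 groups only, or 1 library less) and the model (a block for the library number, or plain empirical Bayes). Library values are given for the members that changed most in each role and comparison, plus Pcna, Gmnn, Cdt1, E2f1, Uhrf1, Mcm2 and Rrm2. From each other list come up to 3 called genes at each end, of which fewer are named, and Mki67, Top2a, Dbf4, Cdc7 and Tyms; some items are not reported here. The members and lists were chosen with earlier results of these data known.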

Additional observations from a re-analysis of the deposited data

Results flagged for a closer look

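In 9 members, the lines were called in opposite directions against the parental cells and the difference between the lines was itself called by limma. Against e1, e2 was lower for Orc1 (-0.89), Cdc6 (-0.83), Rfc4 (-0.80), Orc6 (-0.68), Gins4 (-0.58), Cdt1 (-0.53) and Mcm5 (-0.53) on the log2 scale. It was higher for Rfc3 (1.005) and Mcm3 (0.54). Both calls against parental cells for Rfc3, Orc1, Orc6, Cdc6, Mcm5 and Gins4 held in every alternative run, while those of Cdt1 and Rfc4 in e1 and of Mcm3 in e2 did not, as given in the report. Both lines share the parental libraries. The medians of their chromosomes for e2 against e1 were -0.53 for Rfc4 (chromosome 16), 0.63 for Rfc3 (chromosome 5), 0.30 for Mcm3 (chromosome 1), 0.08 for Orc1 (chromosome 4), 0.00 for Cdc6 (chromosome 11) and 0.01 for Orc6, Cdt1, Mcm5 and Gins4 (chromosome 8).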

How the results depend on the processing

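The counts of members called higher and lower stayed within 1.5 times their main value in every alternative run. Leaving out each library in turn gave 19 to 24 higher and 6 to 8 lower in e1, 10 to 15 higher and 14 to 15 lower in e2, and 9 to 11 higher and 21 to 23 lower for e2 against e1. Of 2157 member values under alternatives, 2061 kept their direction and side of the threshold, 36 lost a call, 38 gained one and 22 changed sign. The cause was not tested.

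All sign changes were in values close to 0 that were not called. In e2 against parental cells, Mcm6 was -0.00499 and Lig1 -0.0233 with median-ratio scaling, and -0.00411 and -0.0197 with the rlog table. For e2 against e1, Rfc1 was -0.0518 and Rpa3 -0.0664 with median-ratio scaling, and -0.0451 and -0.0560 with the rlog table. With the 10 highest genes removed, Mcm2 was 0.0435 and Rfc5 0.0254 in e2. Over the fits with 1 library left out, Fen1 ran -0.0297 to 0.0346 (e1 against parental), Uhrf1 ran -0.0276 to 0.0336 (e1 against parental), Mcm6 ran -0.0559 to 0.179 (e2 against parental), Mcm2 ran -0.0365 to 0.0221 (e2 against parental), Gins3 ran -0.0541 to 0.00593 (e1 against parental), Mcm4 ran -0.00854 to 0.018 (e1 against parental), Rfc2 ran -0.181 to 0.0335 (e1 against parental) and Rpa3 ran -0.0578 to 0.097 (e2 against e1).

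A fit with the replicate block called the same numbers, 21 higher and 6 lower in e1, 12 and 15 in e2, and 10 and 22 for e2 against e1, and changed no call of a member. Deviations of same-numbered libraries correlated at -0.13 to 0.05, and those of differently numbered libraries at -0.16 to 0.13. No effect shared by number was seen there. The labels do not say whether libraries were prepared in matched sets, and these correlations cannot decide it. TPM keeps no depth, so how depth limits the low genes such as E2f2 and Orc1 cannot be stated.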

Other observations

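The tested genes that start within 1 Mb of a member were also examined, members left out. Over all genes tested, 35.7% were called higher and 34.9% lower in e1, and 40.8% and 32.7% in e2. For e2 against e1 the shares were 40.6% and 29.7%. Prim2 on chromosome 1 had 9 such neighbours, and in e2 against parental cells 6 were called higher and 0 lower, with a median of 0.55 beside 0.98 ± 0.08 for Prim2 itself, while the median over chromosome 1 was -0.02. Mcm4 on chromosome 16 had 10 neighbours, of which 8 were lower and 1 higher in e2, with a median of -0.71. Mcm3 had 6, and against e1 all 6 were called higher in e2 (median 0.57, beside 0.54 ± 0.06 for Mcm3). Around Mcm7, 32 of 48 neighbours were lower and 4 higher in e1 (median -0.45, beside -0.58 ± 0.05 for Mcm7). In e2 against parental cells the directions parted, with 22 of those neighbours higher and 7 lower (median 0.30) and Mcm7 called lower (-0.21 ± 0.05). Neighbours of Gins1 (median 0.17 in e1), E2f1 (0.16 in e2) and Rpa1 (0.27 in e1) stood far from the values of those members. For e2 against e1, E2f3 was called lower (-0.31 ± 0.08), while all 6 of its neighbours were called higher (median 0.51). Pola2 (-0.38) was lower too, with 39 of 73 neighbours higher and 14 lower (median 0.35). Uhrf1 (-0.39) was likewise lower, with 25 of 47 neighbours higher and 7 lower (median 0.31). Over the 38 members with at least 5 neighbours, Pearson's r between a member's fold change and its neighbours' median was 0.52 in e1, 0.64 in e2 and 0.70 for e2 against e1, and Spearman's rho 0.59, 0.59 and 0.67. These are descriptions across genes that share libraries, and some neighbourhoods overlap. They were chosen after the values were seen.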
